A study of Mus musculus with 20 samples.

Results

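Olfr110 and Olfr111 are odorant receptor genes that lie next to each other on mouse chromosome 17. They were taken as the rows with these 2 symbols, 2 of 1135 Olfr rows and of 21326 rows in all, and were chosen from their levels in these same libraries. Their levels and differences are therefore a description, and no p-value is given for either gene. Bulk RNA from microglia, the resident macrophages of the brain, was sequenced in 20 libraries from mice aged 9 months of the strain C57BL/6. In 6 libraries the cells had been sorted as C3aR+ through a Td-tomato reporter placed at the floxed C3ar1 locus, from 3 WT and 3 APP-KI mice, so both of these groups carried the reporter. The other 14 libraries held CD45mid CD11b+ cells that were not selected on C3aR, from 3 WT, 3 APP-KI, 3 C3aR-KO and 5 APP-KI; C3aR-KO mice. APP-KI mice carry a humanized Aβ sequence with the Swedish, Iberian and Arctic mutations in the endogenous App gene and form Aβ plaques, and C3aR-KO mice lack C3aR, the receptor for the complement fragment C3a, in every cell. Mice of both sexes were used in the study. The labels number the libraries as replicates and do not say that each came from a separate animal, so the errors measure the spread between these libraries.

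Odorant receptors are G protein-coupled receptors that span the membrane 7 times. In the nose, an olfactory sensory neuron chooses a single receptor gene, and the receptor signals through the G protein Golf (Gnal), adenylyl cyclase 3 (Adcy3) and a cation channel opened by cyclic AMP (Cnga2, Cnga4 and Cngb1). Transcripts of some odorant receptor genes are also found outside the nose, where the ligands and the role of most of them are unknown. The C3aR-KO comparisons ask whether loss of a complement receptor on microglia alters their state with or without Aβ plaques.

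In the GENCODE M21 annotation of GRCm38, the assembly also named mm10, Olfr110 (ENSMUSG00000090894.4) lies at chr17:37492468-37500207 and Olfr111 (ENSMUSG00000090675.2) at chr17:37508030-37532449, both on the plus strand. Each gene has a coding sequence of 951 bases within 1 exon, at chr17:37498653-37499603 in Olfr110 and chr17:37529979-37530929 in Olfr111, and the exons before it are noncoding. The coding sequences aligned without gaps and differed at 18 of 951 bases, and 310 of 317 encoded residues (97.8%) were the same. The first 416 coding bases were identical.

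Of the 50-base words in the annotated Olfr110 transcripts, 31.8% also occurred in Olfr111, and of those of Olfr111 20.9% occurred in Olfr110. No other annotated transcript held any of these words. Sources used here do not give how reads with more than 1 possible position were counted, so the split of reads between the pair is uncertain over these stretches. No other annotated gene overlaps either of them. The next Olfr genes on the chromosome, Olfr112 to Olfr116, are on the minus strand and are far more distant in sequence, with 62.0% to 65.4% of aligned coding bases the same as in Olfr110 or Olfr111. The distance is visible in the 30 coding bases, shown for the pair and for Olfr113 to Olfr116, around a motif that odorant receptors conserve at the inner end of a membrane span. They are bases 352 to 381 of each coding sequence counted from the start codon, read from the GENCODE M21 transcripts, and capitals mark bases that differ from Olfr111.
Olfr110: atggcatatgatcgatatattgctatctgt
Olfr111: atggcatatgatcgatatattgctatctgt
Olfr113: atgTcatatgatcgGtatGtAgctGtTtgt
Olfr114: atgTcatatgatcgTtatatAgctGtTtgC
Olfr115: atgTcatatgatcgTtatGtAgctGtTtgC
Olfr116: atgTcataCgatcgGtatGtAgctatTtgC

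The C3aR+ libraries held between 13939559 and 30388941 reads and the other 14 between 42239056 and 76608464. APP-KI replicate 5 stood apart, with 107 rows at 0 reads against 3876 to 8939 in the other libraries, and it had reads on 1132 of the 1133 other Olfr rows, against 102 to 444 in the remaining 19. A further 4 libraries had over 8000 rows at 0, namely APP-KI replicate 4, C3aR-KO replicates 1 and 2 and APP-KI; C3aR-KO replicate 1. Differences of the pair that rest on these 5 libraries are given with and without them. C3ar1, the gene targeted in the knockout, lay between 276 and 340 scaled units in WT and between 39.9 and 68.1 in C3aR-KO, and between 61.9 and 80.4 in APP-KI; C3aR-KO. A scaled unit is a library's read count divided by its 75th percentile count and multiplied by 1 constant for all libraries, with gene length left in. The libraries labelled WT, C3aR+ held only 37.6 to 81.2 units of C3ar1, about the range of the knockout libraries, whereas those labelled APP-KI, C3aR+ held 201 to 383. C3ar1 in the WT, C3aR+ libraries was thus lower than their label would lead a reader to think. These libraries differ from the other WT libraries in the floxed reporter allele at C3ar1, in sort, in library series and in depth. Which of these goes with the low C3ar1 cannot be told apart, and its part in the results below was not tested. The 10 microglial markers summed to between 10323 and 32803 units in all libraries, and the 14 markers of olfactory sensory neurons to between 0.295 and 12.97 in 19 libraries and to 29.8 in APP-KI replicate 5. Neuronal markers summed to at most 8.32 units in those 19 libraries and to 37.9 in APP-KI replicate 5.

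Olfr111 had reads in all 20 libraries and Olfr110 in 19, and both were higher in APP-KI than in WT microglia. In WT, C3aR+ microglia Olfr110 had 1.83, 1.42 and 0.854 scaled units in replicates 1 to 3, from 57, 29 and 24 reads. In APP-KI, C3aR+ microglia it had 15.6, 17.1 and 17.8. All APP-KI values lay above all WT values. In the microglia not selected on C3aR, Olfr110 had 2.34, 3.04 and 3.15 units in WT replicates 4 to 6. APP-KI replicates 4 to 6 had 10.6, 12.5 and 11.2 units, again without overlap. In C3aR-KO it had 0.354, 0 and 4.31 units, from 24, 0 and 276 reads, so that the libraries of this genotype did not share 1 level. A count of 0 reads allows up to 3 reads, or 0.0472 units in that library, by counting error alone. In APP-KI; C3aR-KO it had 31.7, 13.2, 11.3, 12.5 and 7.92 units in replicates 1 to 5, with replicate 1 far above the rest.

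Olfr111 had more reads than any other Olfr row in each of the 20 libraries. Its scaled values were 29.4, 27.2 and 24.9 in WT, C3aR+ microglia and 171, 105 and 184 in APP-KI, C3aR+ microglia. In microglia not selected on C3aR they were 21.8, 12.8 and 15.9 in WT and 202, 103 and 88.8 in APP-KI. The APP-KI libraries lay above the WT libraries in both kinds of sort. In C3aR-KO Olfr111 had 52.9, 114 and 30.1 units, each above the highest WT value of the same sort. In APP-KI; C3aR-KO it had 219, 97.8, 77.3, 88.9 and 48.9 units, a range that took in all 3 APP-KI values. APP-KI replicate 4 and APP-KI; C3aR-KO replicate 1 held the highest Olfr111 of their genotypes, and C3aR-KO replicates 1 and 2 lay above replicate 3, so the 4 libraries with over 8000 rows at 0 were the high ones. Whether the number of rows at 0 played a part in these levels was not tested.

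**Figure D1:**
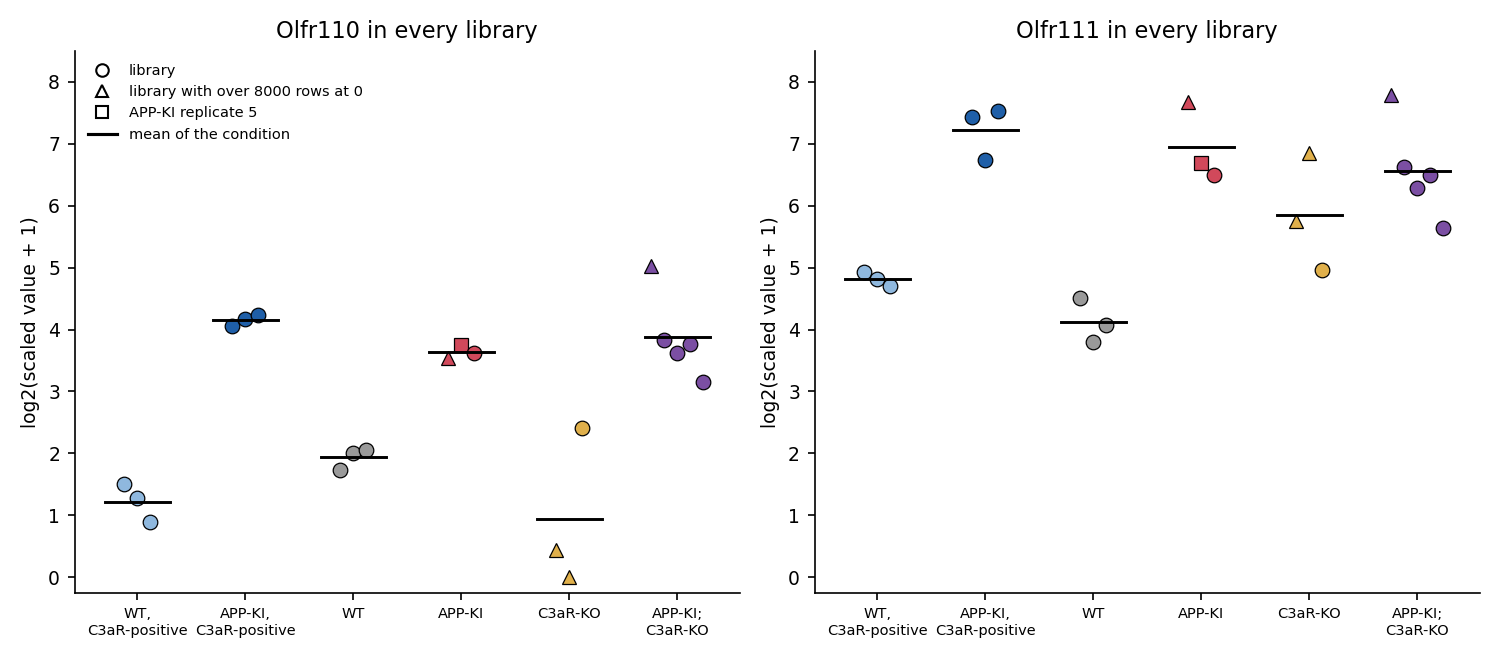
Scaled values of Olfr110 (left) and Olfr111 (right) in all 20 libraries by condition, on a log2(scaled value + 1) axis; each marker is a library, lines are means of the plotted log values, triangles are libraries with over 8000 rows at 0 and the square is APP-KI replicate 5. The APP-KI libraries sit above the WT libraries in both panels, and the C3aR-KO libraries spread from 0 to 4.31 scaled units for Olfr110 and from 30.1 to 114 for Olfr111.

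Ordered by mean, Olfr110 was highest in APP-KI, C3aR+ microglia (16.8 ± 1.13 scaled units, SD, n = 3), followed by APP-KI; C3aR-KO (15.3 ± 9.37, n = 5), APP-KI (11.4 ± 0.955, n = 3), WT (2.84 ± 0.440, n = 3), C3aR-KO (1.56 ± 2.39, n = 3) and WT, C3aR+ (1.37 ± 0.491, n = 3). Among neighbours in this order, only APP-KI and WT had ranges that did not overlap, as did 29.3% of all genes tested. For Olfr111 the order was APP-KI, C3aR+ (153 ± 42.1), APP-KI (131 ± 61.9), APP-KI; C3aR-KO (106 ± 65.6), C3aR-KO (65.6 ± 43.3), WT, C3aR+ (27.2 ± 2.27) and WT (16.9 ± 4.56), with the same n. Here C3aR-KO and WT, C3aR+ did not overlap, nor did WT, C3aR+ and WT, while the other neighbours overlapped. The first gap was small, from 29.4 units in WT, C3aR+ to 30.1 in C3aR-KO. No share over all genes is given for these pairs, which also differ in sort. Without APP-KI replicate 5 the APP-KI mean was 10.9 ± 0.455 for Olfr110 and 145.5 ± 80.2 for Olfr111 (n = 2). Sort, the reporter allele at C3ar1, library series and depth cannot be told apart between the C3aR+ and the other libraries. In bulk samples, fewer cells of a type and less RNA per cell cannot be told apart either.

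In C3aR+ microglia, the mean of Olfr110 was 12.3-fold higher and that of Olfr111 5.64-fold higher in APP-KI than in WT. On the log2(scaled value + 1) scale the differences were 2.93 ± 0.38 (SE) and 2.41 ± 0.21, beside a median of -0.17 over the 12315 genes tested. Olfr110 had the 97th and Olfr111 the 176th highest difference of these genes. The groups did not overlap for either receptor, and this was so for 43.5% of the genes tested, in either direction. The log2 scale with 1 added understates changes of low genes, and with 0.1 added the difference of Olfr110 was 3.58. By limma with Benjamini-Hochberg adjustment (adjusted p under 0.05), 22.7% of genes were called in this comparison, 1602 higher and 1195 lower in APP-KI, a split that became 1845 and 605 with median ratio scaling and 1770 and 659 by edgeR.

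In microglia not selected on C3aR, the APP-KI mean was 4.03-fold the WT mean for Olfr110 and 7.79-fold for Olfr111. The log2 differences, fitted with a term for the library series, were 1.75 ± 0.61 and 2.51 ± 0.37. Without APP-KI replicate 5 they were 1.67 and 2.78, and without all 5 libraries that stood apart 1.69 ± 0.28 and 2.54 ± 0.30, the APP-KI group then being 1 library. A group of 1 library has no spread of its own. These errors, and those below for such groups, come from the spread within the other groups. Within the series of library numbers that held APP-KI replicates 4 and 5 the differences were 1.91 and 2.67, and within the other they were 1.58 and 2.55. Both receptors again separated the groups, as did 29.3% of genes. Of 12410 genes, 4.14% were called.

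In C3aR-KO against WT the receptors differed in sign. Olfr111 was higher in all 3 C3aR-KO libraries, with 3.89-fold the WT mean and a log2 difference of 1.41 ± 0.37, the 16th highest of 12410. Groups did not overlap for 18.5% of these genes. The mean of Olfr110 was 0.547-fold that of WT and its log2 difference -0.93 ± 0.61, but the 3 C3aR-KO libraries lay on both sides of WT. Within 1 library series Olfr110 differed by -1.52 and within the other by 0.38, whereas Olfr111 differed by 1.79 and 1.02. Without the 5 libraries that stood apart, 1 C3aR-KO library remained, and the differences were 0.48 ± 0.28 for Olfr110 and 1.01 ± 0.30 for Olfr111. The sign of the Olfr110 difference thus rested on C3aR-KO replicates 1 and 2. Only C3ar1 was called among all genes (0.00806%), at -2.39 with adjusted p = 0.0034 by limma.

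On the APP-KI background, the ranges of both receptors with and without C3aR overlapped. Relative to APP-KI, the log2 difference of the APP-KI; C3aR-KO libraries was 0.20 ± 0.54 for Olfr110 and -0.13 ± 0.33 for Olfr111. Groups did not overlap for 1.61% of genes. Without APP-KI replicate 5 the differences were 0.29 and -0.41, and without the 5 libraries that stood apart -0.03 and -0.36. At these errors the data do not show whether a difference of the size of the standard error exists. C3ar1 was again the only gene called (0.00806%), at -1.95 with adjusted p = 0.0097 by limma.

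Among mice without C3aR, those with the APP-KI allele had a 9.86-fold higher mean of Olfr110 and a 1.62-fold higher mean of Olfr111. The log2 differences were 2.89 ± 0.54 and 0.97 ± 0.33. The groups did not overlap for Olfr110 and overlapped for Olfr111, against 13.7% of genes that did not overlap. Without the 5 libraries that stood apart, the receptors differed by 1.18 ± 0.27 and 1.17 ± 0.28, against a single C3aR-KO library. Within the 2 library series Olfr110 differed by 4.21 and 1.10, and Olfr111 by 0.91 and 1.18. The larger value of Olfr110 came from the series that held C3aR-KO replicates 1 and 2. Of 12410 genes, 6.93% were called in this comparison.

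**Figure D2:**
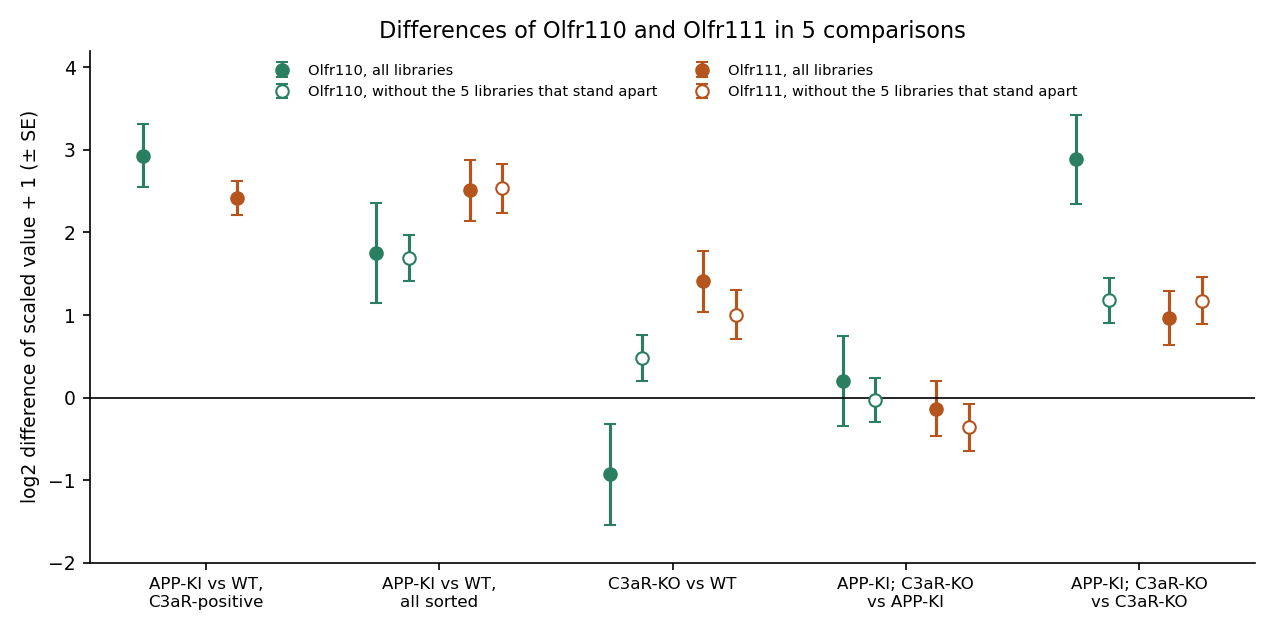
Differences of Olfr110 and Olfr111 in the 5 comparisons on the log2(scaled value + 1) scale, with bars of 1 standard error from the limma fits; open markers leave out the 5 libraries that stood apart, none of which is C3aR+. In those fits APP-KI and C3aR-KO hold 1 library each, so the bars come from the spread within the other groups. Both receptors lie above 0 in both APP-KI against WT comparisons (1.75 to 2.93), and the sign of Olfr110 in C3aR-KO against WT turns from -0.93 to 0.48 without those libraries.

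Per kilobase of annotated exon (1751 bases in Olfr110 and 2643 in Olfr111), Olfr111 exceeded Olfr110 in every library. The ratio ran from 2.80 to 99.0 over the 19 libraries with reads of both, with a median of 5.23. It was narrow in the 5 APP-KI; C3aR-KO libraries, at 4.09 to 4.90, although replicate 1 had more than any other of both receptors. In WT, C3aR+ microglia it was 10.6 to 19.3 and in APP-KI, C3aR+ microglia 4.08 to 7.29, without overlap. C3aR-KO replicate 1 had the ratio of 99.0, C3aR-KO replicate 2 had 7244 reads of Olfr111 and 0 of Olfr110, and C3aR-KO replicate 3 had a ratio of 4.62. In these 2 libraries Olfr111 was thus read at a high level with almost none or none of its neighbour.

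**Figure D3:**
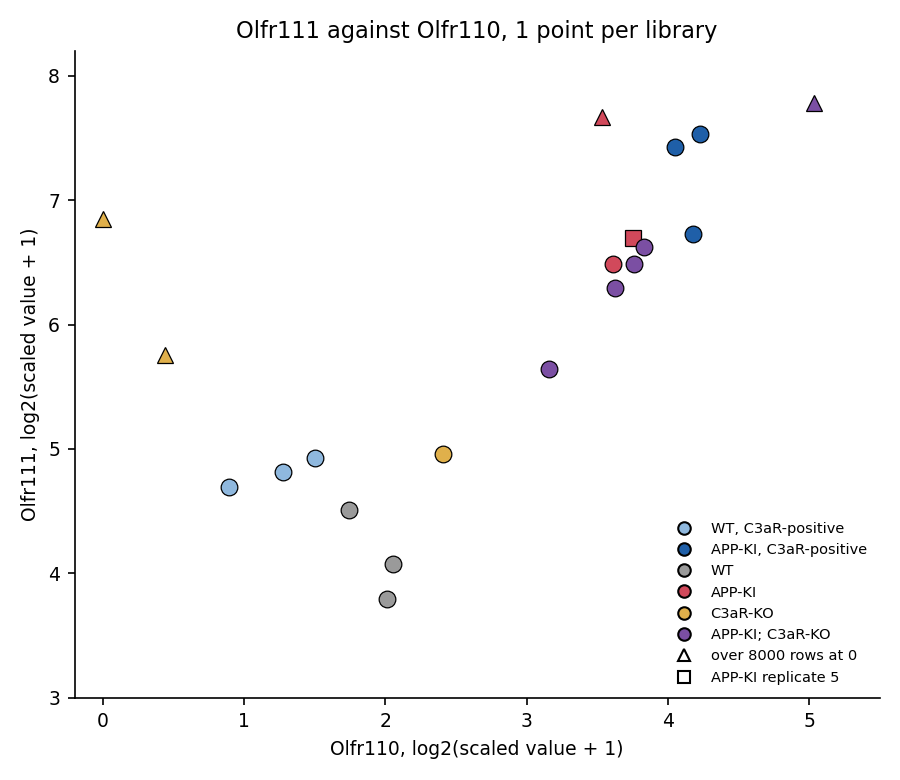
Olfr111 (vertical) against Olfr110 (horizontal) in the 20 libraries, both as log2(scaled value + 1), coloured by condition, with triangles for libraries with over 8000 rows at 0 and a square for APP-KI replicate 5. The APP-KI and APP-KI; C3aR-KO libraries sit to the upper right, and C3aR-KO replicates 1 and 2 sit to the upper left, with 52.9 and 114 scaled units of Olfr111 at 0.354 and 0 of Olfr110.

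Set against the rest of the odorant receptor family, the pair held 32.3% to 71.3% of all reads on Olfr rows in 19 libraries. Per kilobase, Olfr111 ranked first in all 20 libraries among the pair and the 1123 other Olfr genes with an annotated length, and Olfr110 ranked between 2 and 7 in 17 of them. It ranked 14 in WT, C3aR+ replicate 3 and in C3aR-KO replicate 1, and it had no reads in C3aR-KO replicate 2. The median of the other Olfr genes was 0 in every library but APP-KI replicate 5, where it was 0.364 units per kilobase. There the pair held 7.57% of the Olfr reads, as the other Olfr rows summed to 1407 scaled units against 200 in APP-KI replicate 4 and 44.7 in replicate 6. The highest of the other Olfr genes there had 4.13 units per kilobase, against 7.13 for Olfr110 and 38.8 for Olfr111. The scaled values of the pair in this library, 12.5 and 103, lay close to those of replicate 6, at 11.2 and 88.8.

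**Figure D4:**
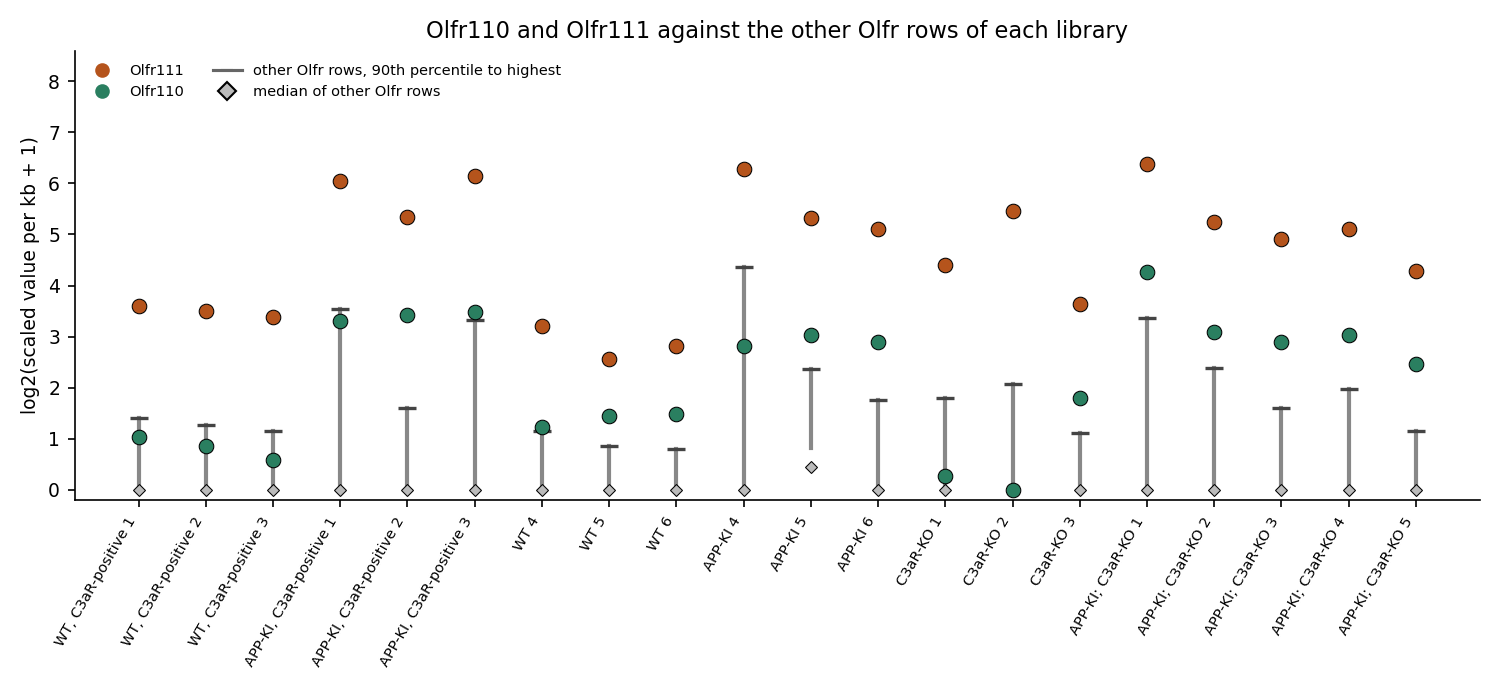
Olfr110 and Olfr111 against the 1123 other annotated Olfr genes in each library, as log2(scaled value per kb + 1); grey lines run from the 90th percentile to the highest of the other genes and diamonds mark their median. Olfr111 is the highest point in all 20 libraries, and only APP-KI replicate 5 has a median above 0, at 0.364 units per kb.

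The cluster on chromosome 17 holds 49 Olfr rows from chr17:37083871-38336643, of which 10 besides the pair reached a mean of 0.2 scaled units in any condition. Next to Olfr111, the run Olfr112 to Olfr116 was low in WT and higher in APP-KI microglia. Olfr112 had a mean of 0.836 units in WT, C3aR+ and 15.3 in APP-KI, C3aR+ microglia, a log2 difference of 3.16 with adjusted p = 0.00445 by limma. Olfr113 (2.42, adjusted p = 0.0320), Olfr114 (2.64, adjusted p = 0.0210), Olfr115 (2.44, adjusted p = 0.0142) and Olfr116 (2.69, adjusted p = 0.0119) rose in the same comparison. Their WT means lay between 0.157 and 0.922 units, so they passed the filter on low values (a mean of 1 unit) only through the APP-KI libraries, and their number gives no support. Olfr113 was not called by edgeR.

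In microglia not selected on C3aR, Olfr112 (2.87, adjusted p = 0.00637) and Olfr115 (2.34, adjusted p = 0.0140) rose in APP-KI by limma, and neither was called by edgeR. Here too the WT means were below 1 unit, at 0.162 to 0.996 for the 5 genes. Olfr113, Olfr114 and Olfr116 had log2 differences of 2.16, 2.13 and 1.86, with adjusted p = 0.133, 0.0779 and 0.201 by limma. Without APP-KI replicate 5 Olfr114 was also called (2.53, adjusted p = 0.0472), and without the 5 libraries that stood apart Olfr114 (1.63, adjusted p = 0.0389) and Olfr116 (1.37, adjusted p = 0.0361) were called beside Olfr112 and Olfr115, all by limma. Replicate 4 held most of these reads, with 36.0 units of Olfr112 against 12.1 and 8.19 in replicates 5 and 6. In mice without C3aR all 5 were called higher with the APP-KI allele, by 2.06 to 3.09 on the log2 scale, with adjusted p between 0.00107 and 0.0399 by limma. Of all genes 3.96% were called higher there. The C3aR-KO means of the 5 genes lay between 0 and 0.791 units. In all microglia not selected on C3aR, they thus passed the filter only through libraries with the APP-KI allele, and their number gives no support. Olfr114 and Olfr116 were not called by edgeR there, and Olfr113 was not called without the 5 libraries that stood apart. Olfr114 overlapped between these groups, with 2.36 units in C3aR-KO replicate 1 against 1.34 in APP-KI; C3aR-KO replicate 5. Olfr115 had no reads in any C3aR-KO library. Its mean in APP-KI; C3aR-KO was 76.6-fold a floor of 3 reads per library, which covers counting error only. C3aR-KO replicates 1 and 2 were among the 5 libraries that stood apart. Whether reads of Olfr115 were missed there beyond counting error was not tested, so 76.6-fold is not a lower bound. None of the 5 was called in C3aR-KO against WT or in APP-KI; C3aR-KO against APP-KI. Olfr115 and Olfr116 share exons on the same strand, and 4.12% to 13.2% of the 50-base words of these 5 genes occur in other genes, so their separate levels are uncertain.

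**Figure D5:**
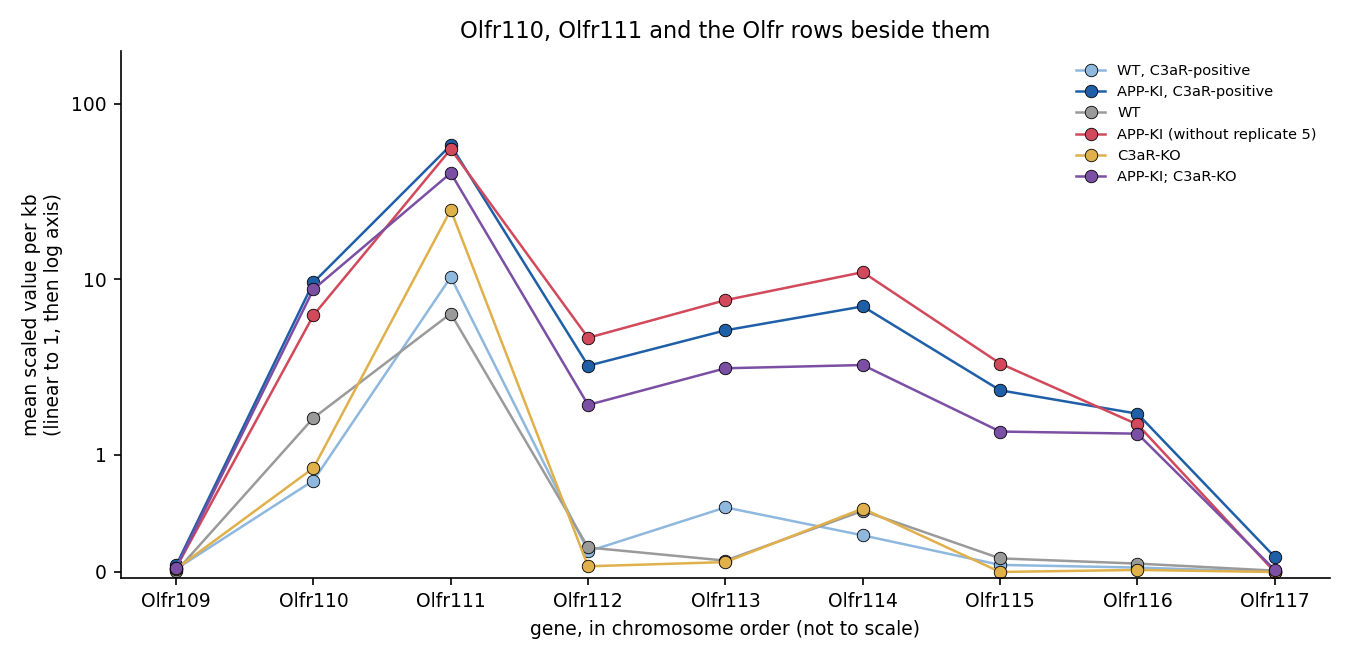
Mean scaled value per kilobase of exon in the 6 conditions for the 9 Olfr genes from Olfr109 to Olfr117 in chromosome order (linear below 1 and logarithmic above; APP-KI without replicate 5; lines join genes of a condition for reading only). Olfr109 and Olfr117 are near 0 in every condition, while Olfr112 to Olfr116 rise to between 1.32 and 11.0 units per kb in the 3 groups with the APP-KI allele.

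Among the Olfr rows the run ended on both sides. Olfr109, before Olfr110, had means of at most 0.331 scaled units and Olfr117, after Olfr116, of at most 0.448, APP-KI replicate 5 left out. Olfr98 reached at most 0.691 units. Olfr99 (1.66 to 3.18 units) and Olfr101 (0.227 to 2.80) were tested and not called in any of the 5 comparisons. Of the nearest genes that are not odorant receptors, H2-M3, a nonclassical MHC class I gene, rose with the APP-KI allele in C3aR+ microglia (1.18, adjusted p = 0.0039), in microglia not selected on C3aR (1.17, adjusted p = 0.0095) and without C3aR (1.09, adjusted p = 0.0049), all by limma. H2-M2, which lies between Olfr109 and Olfr110, was not called in any comparison. Without APP-KI replicate 5 its means were nonetheless higher in each group with the APP-KI allele. They were 1.04 units in WT and 3.72 in APP-KI among C3aR+ libraries, and 0.864 and 2.82 in those not selected on C3aR. In C3aR-KO and APP-KI; C3aR-KO they were 0.370 and 3.29. Ubd and the pheromone genes Esp36, Esp34 and Esp31 had means below 0.04 units in every condition.

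The genes most like each receptor across libraries were not the same. Over the 19 libraries without APP-KI replicate 5, which fall into groups of genotype, sort, library series and depth that can move many genes together, log2 values of Olfr110 were most like those of Kynu (Pearson's r = 0.985), which encodes kynureninase of tryptophan breakdown. The next were the growth factor Fgf1 (0.968), the calcium channel subunit Cacnb4 (0.967), the regulator of G protein signaling Rgs16 (0.957) and the deubiquitinase Otud1 (0.955), among 12196 genes. Means of Kynu ran from 0.888 scaled units in C3aR-KO to 16.6 in APP-KI, C3aR+ microglia. Olfr111 was most like Dock6 (0.955), an exchange factor for small GTPases, Osbpl3 (0.944), a lipid-binding protein, Nexn (0.942), which binds actin, Bcl2l1 (0.941), which restrains apoptosis, and Lyst (0.938), a regulator of lysosomes. The pair correlated with each other at r = 0.629, and Olfr111 ranked 1092 in likeness to Olfr110.

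The cascade that carries odorant signals in the nose was read unevenly. Gnal, which encodes Golf, had means between 0.733 and 2.18 scaled units over the 6 conditions and was not called in any comparison. Its mean in WT, C3aR+ microglia, 2.18, lay above that of Olfr110, 1.37. Without APP-KI replicate 5 the APP-KI mean of Gnal went from 2.11 to 0.509. Cnga2, a subunit of the olfactory channel, had means between 0.223 and 0.962 units and was too low for a test. Its APP-KI mean was 0.762 without that library. Gnas, which encodes the related and widely expressed stimulatory G protein, rose from 85.0 to 334 units in C3aR+ microglia (log2 difference 1.96, adjusted p = 3.03e-05). It also rose by 1.93 in microglia not selected on C3aR (adjusted p = 2.16e-05) and by 2.15 without C3aR (adjusted p = 1.27e-06), by limma. Adcy3 rose in APP-KI, C3aR+ microglia by 1.09 (adjusted p = 0.0160), from 14.7 to 33.0 units, and was not called in the other 4 comparisons. Of 11 tested genes of this list, 4 were higher and 2 lower in APP-KI, C3aR+ microglia, beside 13% of all genes higher and 9.70% lower, with a list median of 0.16 against -0.17 over all genes. In microglia not selected on C3aR 1 was higher and 2 lower (median 0.26), beside 2.22% and 1.93% of all genes. Without C3aR 1 was also higher and 2 lower (median 0.17), beside 3.96% and 2.97%. With the 5 libraries that stood apart left out, these counts were 1 higher and 2 lower of 10 (7.88% and 7.81% of all genes), and 3 higher and 2 lower of 10 (14.3% and 20%). The 2 lower genes in each case were Camk2d (-0.65, -0.74 and -0.88), a calcium-dependent kinase, and Arrb2 (-0.49, -0.58 and -0.67), an arrestin that ends receptor signals. Arrb2 was not called in C3aR+ microglia with median ratio scaling or by edgeR. None was called in the 2 comparisons of C3aR-KO with intact C3aR.

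Of the genes that help carry odorant receptors to the cell surface, some were near 0 and others were read. Rtp2 had no reads in the 19 libraries without APP-KI replicate 5, and Rtp1 had none in any C3aR+ library. Rtp4, in contrast, had means of 7.04 units in WT, C3aR+ and 16.3 in APP-KI, C3aR+ microglia, and Reep5 had 112 and 83.7. Neither was called in that comparison. Of 14 tested genes of receptor transport and choice, Atf5, a stress-response factor used in receptor choice, was higher in APP-KI, C3aR+ microglia (1.98, adjusted p = 0.0117), and Hspa1b (-1.11, adjusted p = 0.0108), a heat shock protein, and Lbr (-0.78, adjusted p = 0.0154), which tethers heterochromatin to the nuclear envelope, were lower. These 3 calls stood beside 13% of all genes higher and 9.70% lower. None was called in APP-KI against WT not selected on C3aR. Without C3aR only Lbr was called, at -1.01 (adjusted p = 0.0113), beside 2.97% of all genes lower. When the 5 libraries that stood apart were left out, Atf5 was higher and Lbr lower in APP-KI against WT, and without C3aR Atf5 was higher and 5 of 14 were lower, Lbr among them, beside 14.3% and 20% of all genes. None of the 14 markers of olfactory sensory neurons reached the mean needed for a test in any comparison.

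Other G protein-coupled receptors of microglia moved in both directions with the APP-KI allele. Of 41 tested in C3aR+ microglia, 11 rose and 15 fell (list median -0.45), beside 13% of all genes higher and 9.70% lower. Among them Hcar2, a receptor for ketone bodies and niacin, rose by 2.88 (adjusted p = 8.26e-05) and Adora1, an adenosine receptor, by 2.49 (adjusted p = 0.00169). Ptger3, a prostaglandin receptor, fell by 3.46 (adjusted p = 0.000763), and the orphan receptor Gpr165 fell by 2.58 (adjusted p = 6.73e-05). In microglia not selected on C3aR 2 of 42 rose, Hcar2 (3.17) and Cxcr4 (2.07), and 6 fell, with Gpr165 at -3.22 and Ptger3 at -3.02. There 2.22% of all genes were called higher and 1.93% lower. Without C3aR 3 of 42 rose and 6 fell, beside 3.96% of all genes higher and 2.97% lower. With the 5 libraries that stood apart left out, 5 rose and 16 fell in APP-KI against WT, where Cxcr4 was no longer called (adjusted p = 0.0926 by limma), and 7 rose and 13 fell without C3aR. The shares of all genes were then 7.88% higher and 7.81% lower, and 14.3% higher and 20% lower. The difference of Olfr110 in C3aR+ microglia, 2.93, thus stood beside that of Hcar2, and that of Olfr111, 2.41, beside that of Adora1.

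Genes known to be induced in microglia at plaques were higher in the same comparisons. All 27 tested rose in APP-KI, C3aR+ microglia (median 2.22), 16 of 27 rose in microglia not selected on C3aR (median 1.42) and 20 of 27 without C3aR (median 1.89), beside medians of -0.17, -0.01 and -0.03 over all genes tested, and none was called lower. Of all genes 13%, 2.22% and 3.96% were called higher in these comparisons. Gpnmb, a glycoprotein of lysosomes, had the largest difference in each, at 8.40, 8.79 and 8.74, and Cst7, a cathepsin inhibitor, rose by 7.07, 7.18 and 7.81. Without the 5 libraries that stood apart, 26 of 27 rose both in APP-KI against WT and without C3aR, where 7.88% and 14.3% of all genes were called higher. Homeostatic genes were called lower for 8, 3 and 1 of 18 in the same 3 comparisons, beside 9.70%, 1.93% and 2.97% of all genes. Siglech differed by -0.52, -0.70 and -0.69. In fits that left out the 5 libraries that stood apart, 10 of 18 were lower both in APP-KI against WT and without C3aR, beside 7.81% and 20% of all genes. None of either list was called in the 2 comparisons of C3aR-KO with intact C3aR. Markers of border macrophages, which the gate can hold, were lower with the APP-KI allele for 5, 2 and 2 of 8, beside the same shares of all genes, and for 7 and 3 of 8 in the last 2 without the libraries that stood apart. They summed to between 186 and 1224 units in the 19 libraries. Their part in the receptor levels was not tested.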

How the data were processed

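Bulk RNA-seq of microglia gave 20 libraries, grouped by the sample labels. Per the labels and the study's methods, the authors built libraries with a kit that adds molecular identifiers, trimmed with cutadapt, aligned with TopHat2 to mm10 and counted with featureCounts; settings for reads with several positions and for strand are not given in the sources used here. The deposited values, named FPKM by the authors, hold a signal: each row's read count divided by the library's 75th percentile of counts over 21326 rows, with no division by length. Whole reads were recovered for 100% of values (tolerance 0.001), and values were multiplied by 35.203 to give scaled units.

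limma 3.58.1 (R 4.3.3; trended variance, Benjamini-Hochberg, adjusted p under 0.05) was run on log2 of the scaled value plus 1 for genes with a mean of at least 1 unit. The 6 C3aR+ libraries were fitted alone and the other 14 together, with the series of library numbers as a term. edgeR 4.0.16 on recovered reads, other scalings, filters and pseudocounts, and leaving out libraries were alternatives. The fits were tested on simulated data. The design had assumed FPKM, and the tests for normalized values were kept. Floors cover counting error only. Python 3.11.15, pandas 2.3.3 and scipy 1.17.1 were used otherwise, and sequences came from GENCODE M21; some stretches are not reported here.

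Named are the pair; cluster Olfr rows with a mean of at least 0.2 units; the 3 nearest other genes on each side; the 5 genes most correlated with each receptor; and up to 4 called genes with the largest differences of each list, with defining markers at 0. Members and lists were chosen with earlier results of these data known, and Gnal, Siglech and C3ar1 were named for their role.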

Additional observations from a re-analysis of the deposited data

Results flagged for a closer look

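In APP-KI; C3aR-KO microglia, replicate 1 lay far above the other 4 replicates for both receptors, at 31.7 scaled units of Olfr110 and 219 of Olfr111. In scaled units its gap to the next library was 0.777 of the group's range for Olfr110 and 0.713 for Olfr111. Dixon's critical value for 5 samples, which chance alone passes in about 1 of 20 groups, is 0.710. The receptors were chosen from these values, so the flag is a description and no test. On the log2(scaled value + 1) scale, not set against that limit, Olfr110 had 5.03 in replicate 1, 3.83 in the next library and 3.16 in the lowest. Olfr111 had 7.78, 6.63 and 5.64 there. The same library had 8939 rows at 0, the most of all 20, and a part of this in the receptor values was not tested. Without it and without the other 4 libraries that stood apart, the means were 11.3 ± 2.36 for Olfr110 and 78.2 ± 21.3 for Olfr111 (SD, n = 4).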

How the results depend on the processing

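Of 164 recomputed differences of the receptors, 155 moved by less than 1 residual SD, and 6 changed sign, 1 of Olfr110 in C3aR-KO against WT and 5 where APP-KI; C3aR-KO was set against APP-KI, and the cause of these and of the changes below was not tested. Adding 0.1 in place of 1 gave Olfr110 log2 differences of 3.58 (APP-KI against WT, C3aR+), -2.11 (C3aR-KO against WT) and 4.39 (APP-KI; C3aR-KO against C3aR-KO), and edgeR gave 3.73 for the first. Without the 5 libraries that stood apart, an alternative chosen after seeing the data, as were those without APP-KI replicate 5 for C3aR-KO, the last 2 became 0.48 and 1.18. Against APP-KI, APP-KI; C3aR-KO then gave -0.03 for Olfr110. Leaving out 1 library at a time, Olfr110 ran from 2.76 to 3.07 and Olfr111 from 2.27 to 2.66 in APP-KI against WT, C3aR+; from 1.67 to 1.86 and 2.32 to 2.78 in APP-KI against WT; from -1.96 (without C3aR-KO replicate 3) to -0.51 and 1.09 to 1.61 in C3aR-KO against WT; from -0.25 to 0.38 and -0.41 to 0.06 in APP-KI; C3aR-KO against APP-KI; and from 2.43 to 3.88 (without C3aR-KO replicate 3) and 0.73 to 1.29 in APP-KI; C3aR-KO against C3aR-KO.

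Counts of called genes, in the order of the report, were 267, 75, 0, 0 and 139 at an adjusted p under 0.0005, where limma had 344 and 147 genes at an unadjusted p under 0.05 in the comparisons with 0. Leaving out 1 library gave 1777 to 2528, 218 (without WT replicate 4) to 413, 0 (without WT replicate 4) to 21 (without C3aR-KO replicate 3), 0 (without APP-KI replicate 5 or 6) to 1, and 614 to 1397 (without APP-KI; C3aR-KO replicate 1). Without the 5 libraries that stood apart, 1904 genes were called in APP-KI against WT and 4158 in APP-KI; C3aR-KO against C3aR-KO. With only the compared groups fitted, limma called 0, 0 and 443 in the last 3 comparisons, with 401 and 42 genes at an unadjusted p under 0.05 in the first 2, where edgeR, run on all 14 libraries, had 267 and 59 and called 1 in each. Without a filter on low values, 2 were called in APP-KI; C3aR-KO against APP-KI.

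Libraries of the same number did not deviate together in all pairs of any comparison (r between -0.31 and 0.25). Some did deviate most like each other, such as replicate 4 in APP-KI against WT (r = 0.25). Replicate 3 in APP-KI; C3aR-KO against C3aR-KO was another such pair (r = 0.22). With 2 or 3 pairs per comparison, whether such libraries share more than a number cannot be told, and the main fits did not pair them. With the replicate number as a block, 111 genes were called in APP-KI against WT, 0 in APP-KI; C3aR-KO against APP-KI (25 at an unadjusted p under 0.05) and 243 in APP-KI; C3aR-KO against C3aR-KO, and Olfr111 differed by -0.93 and Olfr110 by -0.42 in the second. No paired analysis was possible for C3aR-KO against WT because the groups share no replicate number. Olfr110 rests on 0 to 276 reads per C3aR-KO library, which limits every difference that uses them.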
